A study of Bos taurus with 20 samples.

Results

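The genes described here are the vascular endothelial growth factor (VEGF) and angiopoietin ligands and their receptors in cow endometrium. The members were 10 listed genes, and probes were taken by the gene name of the array design. A probe carried the name of 9 of them, with 23 probes in all among the 43653 on the array. FLT1 (VEGF receptor 1) had no probe under its name or its reference accessions and was not analysed here. The filter asked that 8 or more of the 20 arrays show a probe clearly over its background. It kept 21 of the 23 probes, and all 9 genes were among the 19420 tested. The rule itself uses gene names, not measured values.

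Endometrium was taken from 10 cows (Bos taurus), each biopsied in an early and in a late period after calving. The early biopsies fell between day 42 and day 86 and the late ones between day 343 and day 436. Each biopsy was taken with forceps on day 7 after estrus, from the horn of the uterus nearest the corpus luteum. RNA of each biopsy was hybridised to 1 one-colour Agilent array, and the labels name no treatment, breed or age. Every late biopsy followed the same cow's early one, so period cannot be told apart from age or sampling order.

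VEGFA is the main growth signal for blood vessel endothelium and acts through KDR (VEGF receptor 2), while VEGFB and PGF bind FLT1. VEGFC acts on FLT4 (VEGF receptor 3), the receptor of lymphatic endothelium, and in its processed form on KDR. ANGPT1 activates the endothelial receptor TEK (Tie2) and steadies vessels, whereas ANGPT2 often opposes it and accompanies vessel remodelling. The endometrium is among the few adult tissues whose vessels are repeatedly rebuilt, in the cycle and after birth.

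On each array 71.8% to 80.2% of spots exceeded background clearly. The biopsies held their labelled tissue: all 7 epithelium markers tested and all 10 stromal fibroblast markers were above background on all 20 arrays, as were all 18 endothelial markers. Markers of macrophages were lower late as a list, with 6 of 12 past the threshold, against 1.32% of all genes. The median change of the list was -0.87 on the log2 scale and the mean -1.10. Of the 12, 11 lay below 0, and CD163 did not (0.12). The lowest p-values were those of GPNMB (-2.94), VSIG4 (-1.47), CD68 (-1.79) and SPIC (-1.89). In a whole biopsy, fewer cells of a type and less RNA per cell cannot be told apart. The arrays lay on 5 slides of 4, and only slide 3 held both periods. Early arrays of cows 1 to 8 filled slides 1 and 2, and late arrays of cows 3 to 10 filled slides 4 and 5.

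Each probe is a stretch of 60 bases, and where it sits on the mRNA mattered for some values below. The 4 probes printed here lie upstream of each gene's 3′-most probe. They are given 5′ to 3′ as the array files hold them, with positions on the Btau_3.1 bovine build that the files use and with no capitals. They are shown because they belong to the ligands on which most of the results turn. The ANGPT1 probe (chr14:55071680-55071739, plus strand) comes from the part that codes the receptor-binding, fibrinogen-like domain. The PGF probe (chr10:88670304-88675301, minus strand) joins stretches that span 4998 genomic bases. The VEGFC probe (chr27:8751084-8751429, minus strand) spans 346 genomic bases. The VEGFA probe (chr23:17908421-17908480, plus strand) codes part of the heparin-binding region that the longer VEGFA forms have.
ANGPT1 probe 2: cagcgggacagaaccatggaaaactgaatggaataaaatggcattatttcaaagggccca
PGF probe 3: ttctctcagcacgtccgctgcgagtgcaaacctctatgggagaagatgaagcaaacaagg
VEGFC probe 2: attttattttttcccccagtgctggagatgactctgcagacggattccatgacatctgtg
VEGFA probe 3: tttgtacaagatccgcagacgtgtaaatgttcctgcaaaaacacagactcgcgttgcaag
Probes are numbered from the 3′ end of each gene. Probes 1 and 2 of VEGFA share 31 bases, so they are not independent measurements.

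VEGFC was the only one of the 9 genes past the threshold, and it was lower late. It fell by 0.45 on the log2 scale (SE 0.0961, n = 10 cows, 95% interval -0.66 to -0.24), which is 1.36-fold lower. The adjusted p was 0.0490 (limma with cow as a block, Benjamini-Hochberg over all genes tested). Over all 19420 genes, 1.32% passed the same threshold in either direction with 0.778% lower and 0.541% higher. KDR, FLT4, TEK, VEGFA, VEGFB, PGF, ANGPT1 and ANGPT2 did not pass. At an unadjusted p under 0.05, VEGFC and PGF passed, which is 2 of 9, against 22.6% of all genes. The median change of the 9 genes was -0.10, and that of all genes was 0.02.

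Levels here are log2 signals relative to the array's 75th percentile, and each is read only against the same probe on other arrays. The early VEGFC levels ran from -1.06 in cow 5 to -0.03 in cow 4, with a median of -0.18. The late levels ran from -1.17 in cow 1 to -0.51 in cow 2, with a median of -0.73. The groups overlapped, but 8 of the 10 early arrays were above every late array. The 2 exceptions were the early arrays of cows 1 and 5. VEGFC fell in 9 of 10 cows, most in cow 9 (-0.81), and was higher late in cow 5 by 0.18. An exact two-sided sign-flip permutation test over the 10 cows gave p = 0.00391.

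**Figure D1:**
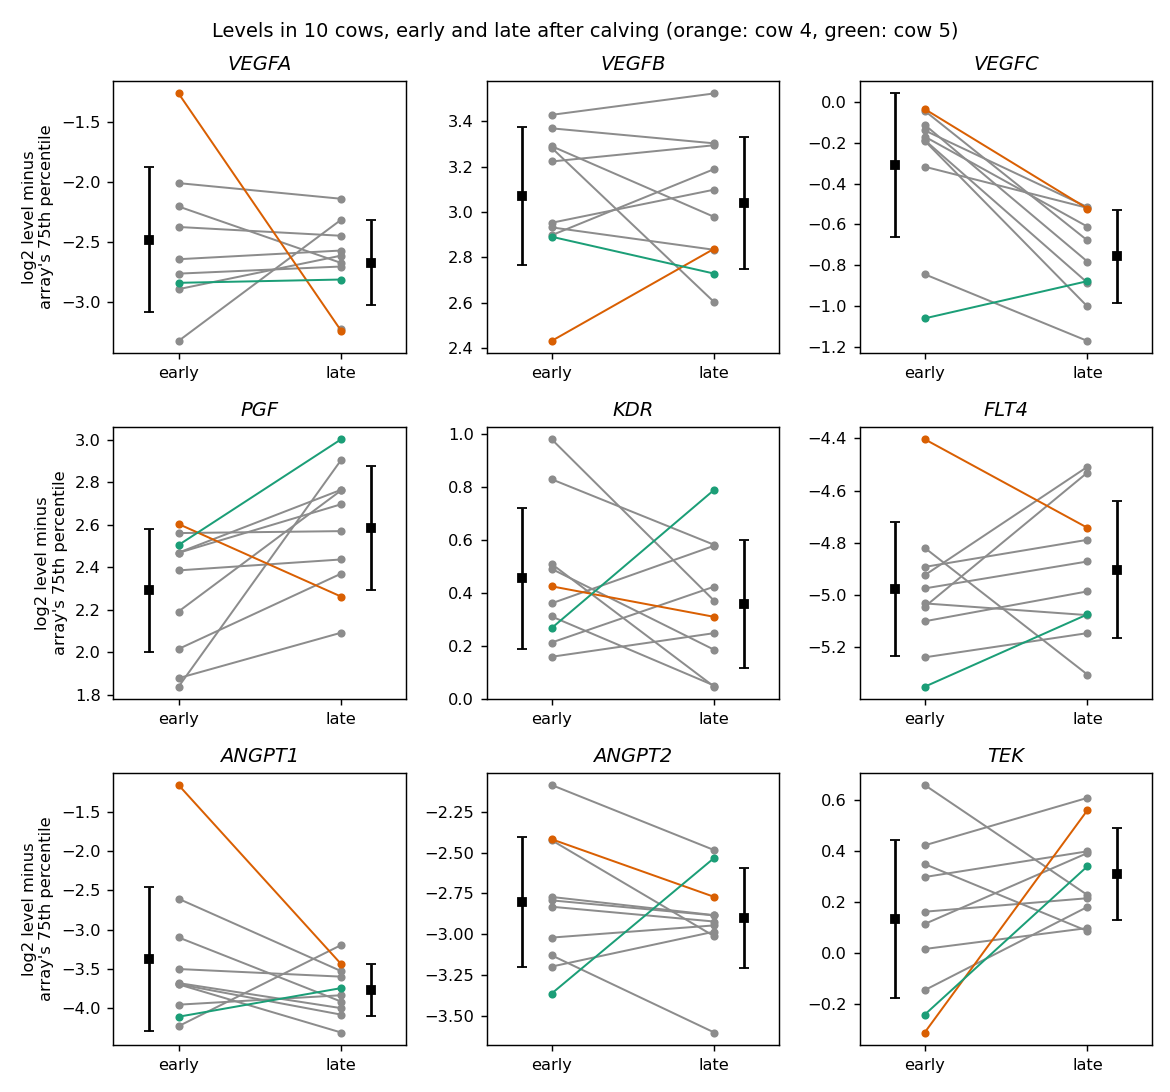
Level of each gene in each of 10 cows (points joined by cow), early and late after calving, as log2 signal minus the array's 75th percentile. Squares and bars are the mean and SD, cow 4 is orange and cow 5 green. VEGFC is lower late in every cow but cow 5, while cow 4 has the highest early ANGPT1 and VEGFA.

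Both VEGFC probes moved alike. Probe 2, printed above, fell by 0.55 (SE 0.121) against 0.45 for probe 1, also in 9 of 10 cows. Across the cows the changes of the probes correlated at r = 0.957, a description, since they measure one mRNA in the same arrays. Neither passed when each probe was tested on its own over 33759 probes (adjusted p 0.0527 and 0.0541, limma), where 1.13% of probes passed. At an unadjusted p under 0.05, 4 of the 21 member probes passed (both of VEGFC, 1 of PGF and 1 of ANGPT1), against 23.8% of all probes.

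The VEGFC call lay at the edge of the threshold, with the 254th smallest p of 256 genes called. Leaving out 1 cow at a time kept the value between -0.52 and -0.41, but the call held only without cow 5 (adjusted p 0.0316, limma). Without any of the other 9 cows, the adjusted p lay between 0.0708 (without cow 4) and 0.0994 (without cow 10). Fewer genes were called over all 19420 in each of these fits, from 35 (without cow 10) to 159 (without cow 5). Without the cow block the change was the same and the adjusted p was 0.101. With no filter on dim probes it was 0.0704, and with the probes of each gene averaged 0.0512. With slide as a fixed block the change was -0.43 (SE 0.490, adjusted p 0.9999). A random effect of slide gave -0.45 (adjusted p 0.0818). In slide 3 alone, with 2 arrays a period from different cows, it was -0.66 (SE 0.301, adjusted p 0.609). The genes called over all were 119 without the cow block, 114 of 25381 with no filter and 238 with probes averaged. They were 35 with a random effect of slide, and 0 with slide as a fixed block or in slide 3 alone.

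**Figure D2:**
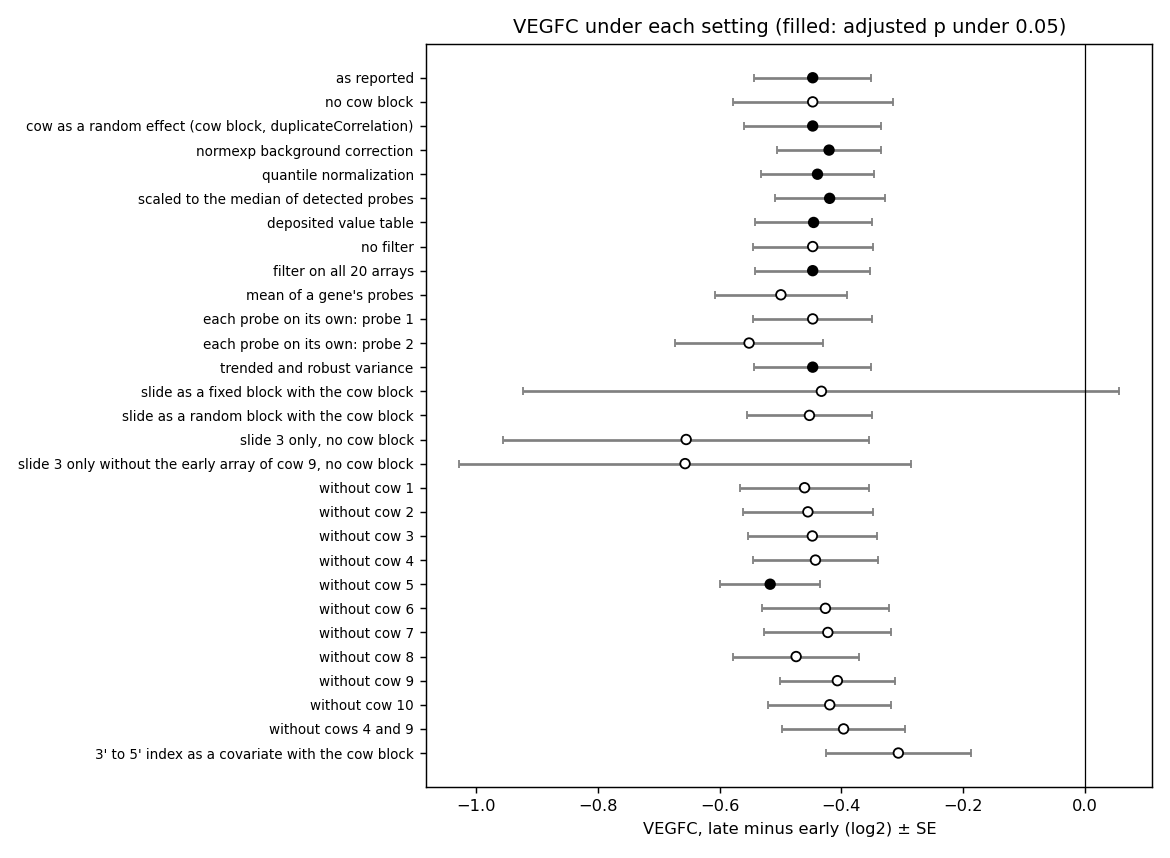
Change of VEGFC (late minus early, log2, with SE) as reported and under each other setting. Filled points have an adjusted p under 0.05. Every point lies below 0, from -0.66 to -0.31, and most single-cow omissions lose the call.

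Marker lists of macrophages and stromal fibroblasts were set beside the VEGFC change. The macrophage list was lower late in 10 of 10 cows. Across cows its change and that of VEGFC correlated at r = 0.59 (rho 0.58; permutation p 0.0735 and 0.0876; adjusted p 0.265 and 0.315). Without the 2 cows farthest from the median change of the macrophage list r was 0.67. Stromal fibroblast markers had a median change of -0.28 with 1 of 10 past the threshold (HAND2, a progesterone-dependent stromal factor, -0.87, adjusted p 0.0455 by limma). The part of these cell types in the VEGFC change was not tested.

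The other ligand of FLT4, VEGFD, is a partner outside the set and did not pass (0.46, SE 0.259, adjusted p 0.307, limma). NRP2, a co-receptor for VEGFC, had a change of -0.45 (SE 0.126) and was lower late in 10 of 10 cows, with an adjusted p of 0.0879 by limma. It and VEGFD were picked out after their values were seen. CCBE1, needed with a protease to process VEGFC, had a change of -0.09.

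PGF, the placenta growth factor, differed between its own probes. Its brightest probe, nearest the 3′ end, ran early from 1.84 in cow 9 to 2.60 in cow 4 (median 2.43). Late it ran from 2.09 in cow 3 to 3.003 in cow 5 (median 2.63). The groups overlapped widely, yet 9 of 10 cows were higher late, all but cow 4. The change was 0.29 (SE 0.117, 95% interval 0.04 to 0.55, n = 10 cows), with an adjusted p of 0.175 by limma. Probe 2 gave 0.01 (SE 0.140) and probe 3, printed above, gave -0.18 (SE 0.149).

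Within each cow the 3′-most PGF probe changed by more than the 5′-most probe in the upward direction. The mean difference of the changes was 0.48 ± 0.42 (SD), above 0 in 10 of 10 cows. The exact sign-flip permutation p was 0.00195, the smallest that 10 cows allow, and 0.0117 after adjustment over the 6 genes whose probes at both ends passed the filter. This test is against 0, while the same difference lay above 0 in 75.3% of 5242 other genes, as given below. It was not run on each of those genes, so whether PGF stood apart from them was not tested. The direction of a PGF change therefore depended on the probe, and none of its probes passed.

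**Figure D3:**
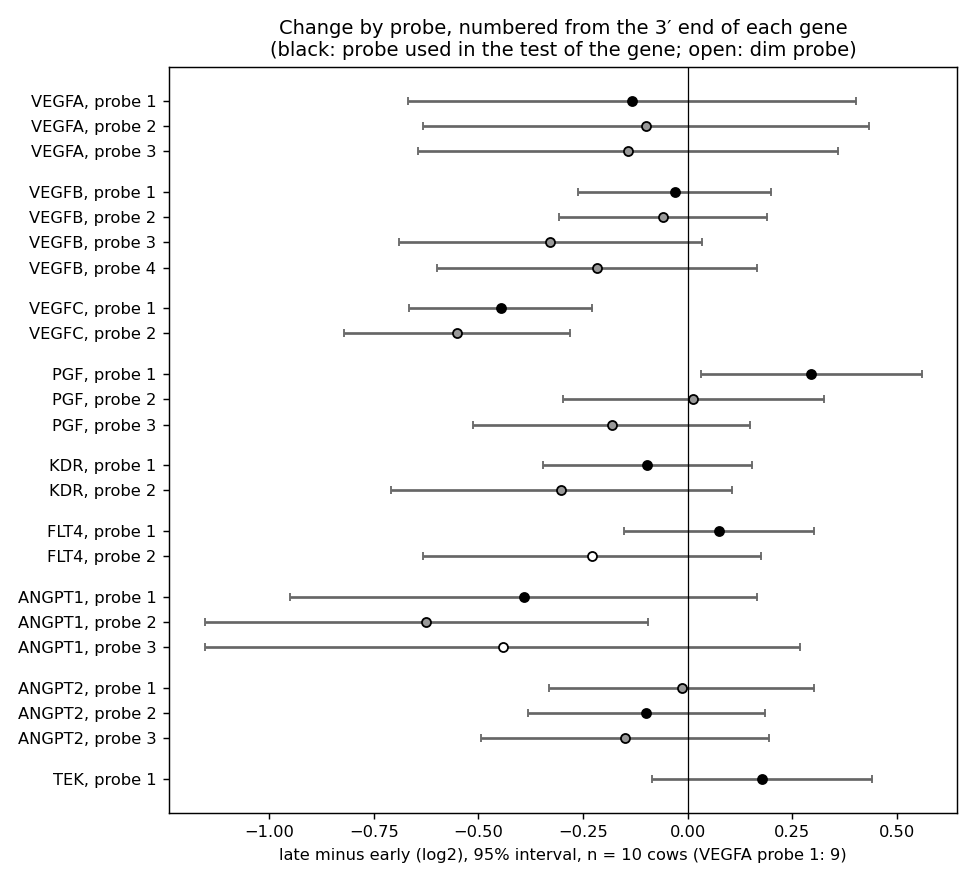
Change of every probe (late minus early, log2, with its 95% interval), numbered from the 3′ end of its gene. Intervals come from a fit of all probes, dim ones included. Black points are the probes used for the gene, grey ones other probes above background, and open ones dim probes. The PGF probes step from 0.29 to -0.18 and both VEGFC probes lie below 0.

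A difference between gene ends was also present outside the set. Over 5242 other genes with probes 300 to 100000 bases apart, the 3′ probe minus the 5′ probe changed by a median of 0.11 late against early. This difference was above 0 in 75.3% of those genes. Its median per array had a median of 2.91 early and 2.99 late and was higher late in 10 of 10 cows (mean difference 0.11 ± 0.12 SD, exact sign-flip permutation p 0.00195). Of the other 5 members tested in this way, none passed after adjustment. VEGFC had a difference of 0.10 ± 0.14 (8 of 10 cows, exact p 0.0488, adjusted 0.146). FLT4 and ANGPT1 were not tested, since their 5′-most probes were above background on 0 and 3 arrays.

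With this end index of each array as a covariate, VEGFC had a change of -0.31 (SE 0.119, adjusted p 0.446) and PGF of 0.12 (SE 0.146, adjusted p 0.794, limma). In that fit 0 of the 19420 genes passed, while 2025 had an unadjusted p under 0.05. The index was higher late in every cow, so index and period are only partly separated in this fit.

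**Figure D4:**
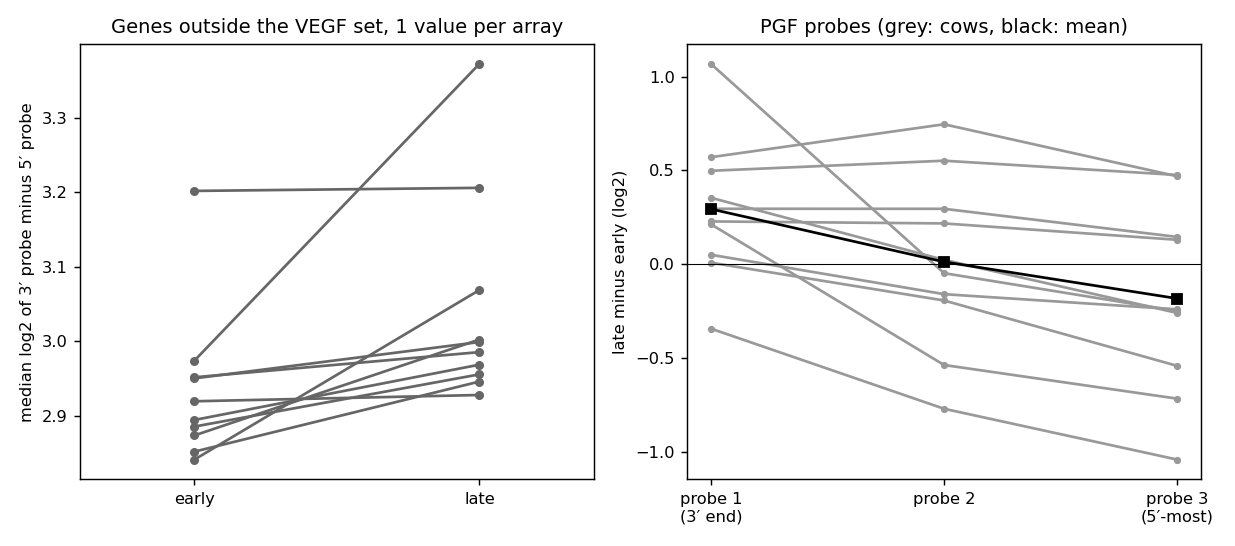
Left, the median log2 difference between the 3′ and the 5′ probe over 5242 genes outside the set, for each cow early and late (lines join a cow). Right, the late minus early change (log2) of the 3 PGF probes in each cow, with the mean in black. Every cow rises on the left, and on the right every cow's probe 3 lies below its probe 1.

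VEGFA did not pass, and the sign of its mean change rested on 1 cow. Its early levels ran from -3.32 in cow 10 to -1.26 in cow 4 (median -2.64, n = 9). The late levels ran from -3.24 in cow 4 to -2.14 in cow 8 (median -2.64, n = 10). The groups overlapped, and cow 4 went from the highest early array to the lowest late one. The change was -0.13 (SE 0.240, 95% interval -0.67 to 0.40, adjusted p 0.765, limma), with 4 cows lower and 5 higher. The early spot of cow 1 was flagged as an outlier and left out, so cow 1 gave no change. The deposited table, which has a value there, gave -0.40, so that value includes the flagged spot. By VEGFA probes 2 and 3, which had values on all arrays, cow 1 changed by -0.23 and -0.44. By probe 2, 6 cows were lower and 4 higher, and by probe 3, 7 and 3.

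Cow 4 had a VEGFA change of -1.98 by probe 1, -2.05 by probe 2 and -1.68 by probe 3. Without cow 4 the VEGFA change turned to 0.10 (SE 0.141). The 3 VEGFA probes gave -0.13, -0.10 and -0.14, so the probe of the longer forms did not stand apart from the 3′ probes (difference of the ends -0.02 ± 0.44 SD, exact sign-flip permutation p 0.922).

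VEGFB, which binds FLT1 and is linked to fat handling by endothelium, stayed within the spread between cows. It ran from 2.43 to 3.43 early (median 3.09) and from 2.60 to 3.52 late (median 3.04). The groups overlapped nearly fully, with cow 8 the highest in both periods. The change was -0.03 (SE 0.101, 95% interval -0.25 to 0.19, adjusted p 0.877, limma), lower in 5 cows and higher in 5. Its other 3 probes gave -0.06, -0.33 and -0.22.

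The receptors did not pass either. KDR ran from 0.16 in cow 8 to 0.98 in cow 7 early (median 0.39) and from 0.05 in cow 10 to 0.79 in cow 5 late (median 0.34). The groups overlapped, with 6 cows lower and 4 higher. The change was -0.10 (SE 0.111, 95% interval -0.34 to 0.15, adjusted p 0.625, limma). It was -0.17 without cow 5 and -0.04 without cow 7. The second KDR probe gave -0.30 and was above background on 9 early and 4 late arrays.

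FLT4 ran from -5.35 in cow 5 to -4.40 in cow 4 early (median -5.00) and from -5.30 in cow 9 to -4.51 in cow 10 late (median -4.93). Its groups overlapped across most of their range. The change was 0.08 (SE 0.1002, 95% interval -0.14 to 0.29, adjusted p 0.678, limma). It ran from 0.03 without cow 7 to 0.14 without cow 9. The second FLT4 probe was not well above background on any array. Of 4 lymphatic endothelium markers tested, 0 passed and 0 had an unadjusted p under 0.05 (limma). LYVE1, a hyaluronan receptor of lymphatic vessels, had a change of 0.40, and RELN also 0.40, while PDPN (-0.04) and MMRN1 (-0.18) lay below 0.

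TEK, measured by 1 probe, ran from -0.31 in cow 4 to 0.66 in cow 7 early (median 0.14) and from 0.09 in cow 10 to 0.61 in cow 9 late (median 0.28). The late arrays lay inside the early range, and 8 of 10 cows were higher late, all but cows 7 and 10. The change was 0.18 (SE 0.117, 95% interval -0.08 to 0.43, adjusted p 0.379, limma), and 0.10 without cow 4. Endothelial markers as a list had a median change of 0.03, and 0 of 18 passed. At an unadjusted p under 0.05 there were 2 (limma), against 22.6% of all genes. These were ENG, a TGF-beta co-receptor (-0.31), and EGFL7, a matrix protein of endothelium (0.30).

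ANGPT1 was lower late in 7 of 10 cows but did not pass. It ran from -4.23 in cow 6 to -1.16 in cow 4 early (median -3.69) and from -4.31 in cow 1 to -3.19 in cow 6 late (median -3.79). The groups overlapped, and the early array of cow 4 lay far above all others. The change was -0.39 (SE 0.253, 95% interval -0.95 to 0.16, adjusted p 0.373, limma). Cow 4 alone changed by -2.28, and without it the change was -0.18 (SE 0.188). Probe 2, printed above, gave -0.62 (SE 0.239, adjusted p 0.151 over all probes, limma) and was above background on 10 early and 6 late arrays. Probe 3 gave -0.44 but was above background on only 3 arrays.

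ANGPT2 ran from -3.36 in cow 5 to -2.09 in cow 9 early (median -2.81) and from -3.60 in cow 10 to -2.48 in cow 9 late (median -2.90). The groups overlapped, and cow 5 rose by 0.83 while 7 cows were lower. The change was -0.10 (SE 0.126, 95% interval -0.38 to 0.18, adjusted p 0.664, limma). It was -0.20 without cow 5 and -0.04 without cow 7. Its probe nearest the 3′ end gave -0.01 and its 5′-most probe -0.15.

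**Figure D5:**
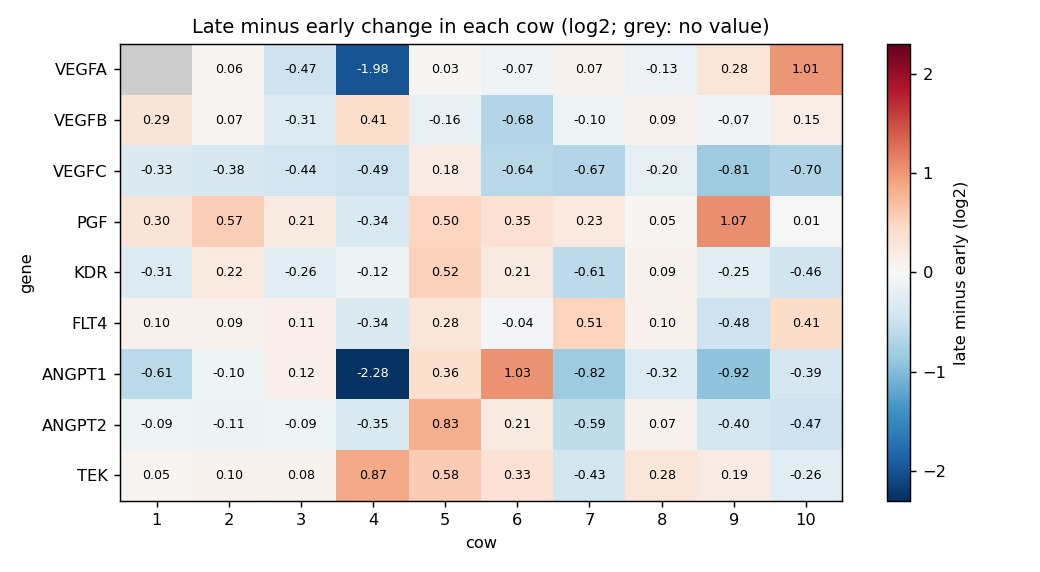
Late minus early change (log2) of each gene in each cow, blue lower and red higher late. The grey cell is VEGFA in cow 1, which has no value. Cow 4 holds the lowest values, VEGFA at -1.98 and ANGPT1 at -2.28, and VEGFC is blue in 9 of 10 cows.

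Cow 4 combined several of the extreme values. Early, it had the highest VEGFA, VEGFC, PGF, FLT4 and ANGPT1 of all the early arrays and the lowest VEGFB and TEK. For VEGFC (-0.0339 against -0.0427 in cow 6) and PGF (2.60 against 2.56 in cow 10) the lead was narrow. The TEK of cow 4 rose by 0.87, the largest TEK change among the cows. In cow 4 the macrophage list changed by -2.17, the list of 4 hormone receptors (ESR1, ESR2, PGR and OXTR) by -1.44 and the endothelium list by 0.51. Its smooth muscle list changed by -1.05, its stromal fibroblast list by -0.79 and its epithelium list by 0.54. The part of these lists in the values of cow 4 was not tested.

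Related members were also compared directly within each cow. Of 6 such pairs, TEK against KDR passed. TEK changed by 0.27 ± 0.30 (SD) more than KDR, above 0 in 9 of 10 cows (exact sign-flip permutation p 0.00781, adjusted 0.0469). TEK and KDR are both endothelial receptors, and neither changed past the threshold on its own. The call was lost without any 1 of 8 cows, with an adjusted p of up to 0.0938, and held without cow 2 or cow 10. The pair test was not run with slide as a block. With slide as a fixed block TEK changed by 0.09 (SE 0.568) and KDR by 0.42 (SE 0.494), the opposite order. Within slide 3 TEK changed by -0.08 and KDR by -0.29.

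The ratio of ANGPT2 to ANGPT1, antagonist to agonist, changed by 0.29 ± 0.71 (SD, higher in 6 of 10 cows, exact p 0.232, adjusted 0.394), and by 0.11 without cow 4. PGF changed by 0.43 ± 0.69 more than VEGFA, in 8 of 9 cows (exact p 0.102, adjusted 0.305). Without cow 10 that difference was 0.61 with an adjusted exact p of 0.0469. VEGFC against VEGFA, VEGFB against VEGFA and FLT4 against KDR had adjusted p-values of 0.394, 0.926 and 0.394 by the same exact permutation test. FLT1 against KDR was not analysed here.

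Ligands and receptors were next followed across the cows. Of 36 correlations over cows, none passed after adjustment within its family. Only chosen pairs of members were compared, not every pair. Among the compared pairs the highest r was that of VEGFC with its receptor KDR, r = 0.70 (rho 0.55; permutation p 0.0226 and 0.106; adjusted 0.150 and 0.215). It fell to 0.46 without the 2 cows farthest from the median VEGFC change. By rho the highest of the compared pairs was KDR with TEK. Their changes had r = 0.67 (rho 0.79; permutation p 0.0333 and 0.00853; adjusted 0.150 and 0.0768), and 0.40 without 2 cows. ANGPT1 and ANGPT2 changes had r = 0.61 (rho 0.72; permutation p 0.0713 and 0.0235; adjusted 0.214 and 0.106), and 0.78 without 2 cows.

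TEK changes had r = 0.80 with the endothelial list (rho 0.77; permutation p 0.00657 and 0.0126; adjusted 0.118 and 0.226) and 0.36 without 2 cows. ANGPT1 changes had r = 0.74 with the macrophage list (rho 0.68; permutation p 0.0144 and 0.0341; adjusted 0.129 and 0.307) and 0.37 without 2 cows. VEGFC with KDR, KDR with TEK and these 2 relations to marker lists had a lower r without 2 cows, while ANGPT1 with ANGPT2 did not. The cows left out were those farthest from the median of the first-named gene, the marker list or, below, the early level. Leaving them out narrows the range of that measure, which can itself lower r, so the relations cannot be ranked by it. The early and late levels of a cow correlated past the adjusted threshold for none of the 9 genes. By r the highest was VEGFC at 0.57 (rho 0.48; permutation p 0.0826 and 0.166; adjusted 0.607 and 0.747), with r = 0.07 without 2 cows, and by rho it was VEGFB at 0.54.

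Within each period the cows differed in days since calving. No gene of the 19420 followed the day at the adjusted threshold, early or late (0% and 0%, limma), while 5.65% early and 1.37% late had an unadjusted p under 0.05. Early, VEGFC had a slope of -0.17 per 10 days (SE 0.0725, p 0.0427, adjusted 0.867) and FLT4 one of -0.13 (SE 0.0565, p 0.0432, adjusted 0.867). The VEGFC slope was -0.06 without cow 5, biopsied on day 86 and lowest of the early arrays. Late, no member had an unadjusted p under 0.05.

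The wider pathway was read from 57 partners, of which 52 were tested. Against 1.32% of all genes, 1 of the 52 passed. It was DOK2, an adaptor that docks to activated TEK and is also made by myeloid cells, with a change of -0.69 (SE 0.134, adjusted p 0.0385, limma), lower in 9 of 10 cows. The median change of the partners was -0.10, with 10 of 52 at an unadjusted p under 0.05, against 22.6% of all genes. NRP1, the co-receptor of VEGFA, had a change of 0.04, the orphan receptor TIE1 -0.15, and the Notch ligand DLL4, a target of VEGFA in tip cells, 0.01.

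Of 16 genes listed as angiogenesis inhibitors 0 passed, with 4 at an unadjusted p under 0.05 (limma), against 22.6% of all genes. The lowest p-values were those of VASH2 (-0.34), which unlike its relative VASH1 is known to promote vessel growth, and THBS1, thrombospondin (-0.86). Of 22 hypoxia-responsive genes 0 passed, with 7 at an unadjusted p under 0.05 (limma), again against 22.6% of all genes. The lowest p-values were those of BNIP3, a mitophagy receptor (-0.31), and CA9, a carbonic anhydrase (0.49), which lay on opposite sides of 0.

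Pericyte markers had a median change of -0.25 and 0 of 9 passed. At an unadjusted p under 0.05 there were 2 (limma), against 22.6% of all genes. They were PDGFB, the endothelial signal that draws pericytes (-0.32), and its receptor PDGFRB (-0.74). Of 7 epithelium genes, 5 smooth muscle genes and 4 hormone receptor genes (ESR1, ESR2, PGR and the oxytocin receptor OXTR) 0 passed (limma). At an unadjusted p under 0.05 these lists had 2, 0 and 0, against 22.6% of all genes. Their lowest p-values were those of the keratin KRT18 (0.42) and the tight junction gene CLDN3 (0.62), of DES (0.34) and CNN1 (-0.34), and of ESR2 (0.69) and OXTR (-1.21).

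The genes whose changes across the 10 cows were most like those of VEGFC were PADI6 (r = 0.89), GRIK2 (r = 0.88) and CFD (r = 0.87), among 13000 named genes. CFD, complement factor D, itself changed by -0.62 (SE 0.112, adjusted p 0.0333, limma), lower in 10 of 10 cows. GRIK2, a glutamate receptor subunit, had a change of -0.76 (adjusted p 0.0848) and PADI6 of 0.12 (adjusted p 0.711). These likenesses are a description over 10 cows, with no test.

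Slide and period could be separated only through slide 3. With slide as a fixed block the other members changed by 1.93 (VEGFA, SE 0.893), -0.25 (VEGFB), 1.32 (PGF, SE 0.593), -0.02 (FLT4), 0.42 (KDR), 1.34 (ANGPT1, SE 1.13), 0.47 (ANGPT2) and 0.09 (TEK). Within slide 3 they changed by 0.14 (VEGFA), 0.08 (VEGFB), 0.56 (PGF), -0.14 (FLT4), -0.29 (KDR), -0.80 (ANGPT1), -0.30 (ANGPT2) and -0.08 (TEK). None passed in either fit, and 0 of the 19416 genes tested in each passed. VEGFB, FLT4, TEK and VEGFA changed sign in at least 1 of these fits, as did KDR, ANGPT1 and ANGPT2, while VEGFC and PGF kept theirs. With slide as a fixed block the SE was 0.553 for FLT4, 0.494 for KDR and 0.488 for ANGPT2. Within slide 3 the SE was 0.306 for VEGFA, 0.249 for VEGFB, 0.225 for FLT4 and 0.212 for TEK. Apart from VEGFA and ANGPT1 with slide as a fixed block, each changed sign came with a value smaller than its SE.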

How the data were processed

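Endometrial RNA of 10 cows, early and late after calving, was measured on 20 one-colour arrays (total RNA, Cy3, per the labels' protocols). Per the file headers and the submitters' processing notes, Agilent Feature Extraction 10.5.1.1 read the images. Each spot's deposited intensity values are its background-subtracted processed signal, its mean signal and its background. The authors' deposited value table holds log2 values. By comparison with the scanner values, it was the scaled log2 signal used here, centred on each probe's median. Column medians are in the results and their direction followed the scanner values. The number of unused columns of per-sample values was 0.

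Here, from the log2 of the processed signal, the 75th percentile of the array's noncontrol spots was subtracted. Controls and spots with an outlier flag were removed, and repeated spots were averaged. The probe of highest mean, among those well above background on at least 8 of 20 arrays, stood for a gene. Probes were named through a RefSeq table (names only). The periods were compared with limma 3.58.1 under R 4.3.3 (lmFit, eBayes, cow as fixed block, two-sided, Benjamini-Hochberg over 19420 genes, threshold 0.05). Of all genes, 105 were higher and 151 lower (144 and 126 with normexp, 183 and 171 with quantile normalization, 159 and 155 scaled to the median of detected probes). Permutation tests used all sign flips or 100000 resamples (Python 3.11.15, scipy 1.17.1). On simulated data of 19214 genes for this comparison, the fit recovered 40% of the genes given a log2 change of 0.5, 72% at 1, 98% at 2 and 100% at 3.

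Pairing comes from the design text, the titles and the animal numbers; the late samples' source names carry other cow numbers, which the labels do not resolve. Over all genes, the early and late deviations of a cow had correlations of -0.11 to 0.76, with a median of 0.42 (over 0.1 in 8 of 10 cows), against a median of -0.03 for arrays of different cows. The members and lists were chosen with earlier results of these data known. By rule the text describes all members, and per list up to 4 genes past the threshold or the 2 of smallest p, plus the 3 genes most like the member of smallest p. The partners VEGFD, NRP2, CCBE1, NRP1, TIE1 and DLL4 fall outside this rule, as do the markers PDPN, MMRN1 and CD163. All of these were chosen after their values were seen. Each cow is 1 replicate, and precision is limited by how many arrays there are. Alternatives are in the closing section.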

Additional observations from a re-analysis of the deposited data

Results flagged for a closer look

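Of 27 groups of 9 or 10 values tested for a value far from the rest, 3 had one, and chance alone flags about 1 in 20 groups. The early ANGPT1 level of cow 4 was -1.16, with the next highest early array at -2.61. The late ANGPT2 level of cow 10 was -3.60, with the next lowest at -3.01. The VEGFA change of cow 4 was -1.98, with the next lowest change at -0.47.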

How the results depend on the processing

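Among 430 alternative values, 349 kept their direction and side of the threshold, 55 lost a call or moved below the reported count, 4 gained one and 22 changed sign. The number of members past the threshold, 1 as reported, was also 1 under cow as a random effect, normexp, the deposited table, quantile normalization, centring on detected probes, the filter on all 20 arrays and a trended, robust variance. It was 0 with no filter, with probes of a gene averaged, with each probe on its own, with slide as a fixed or random block, within slide 3 with or without the early array of cow 9, without cows 4 and 9, and with the end index as a covariate, and 2 by the unadjusted exact sign-flip test. Without the replicate block (no pairing by cow) it was also 0. The number of all genes called moved with the setting too, against 256 as reported. That number was 724 with cow as a random effect, 119 without the replicate block and 35 with slide as a random block. With slide as a fixed block, within slide 3 and with the end index it was 0. The sign-flip test was run on members only, so its count of 2 has no share over all genes beside it. Leaving out 1 cow gave 0 to 1 members and, for the 6 pair tests, 0 to 2 calls. The causes were not tested.

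Sign changes were as follows. With slide as a fixed block they were VEGFA 1.93, FLT4 -0.0175, KDR 0.42, ANGPT1 1.34 and ANGPT2 0.47. Within slide 3 they were VEGFA 0.14, VEGFB 0.0814, FLT4 -0.14 and TEK -0.0785, and without the early array of cow 9 there VEGFA 0.36, VEGFB 0.29, FLT4 -0.0845, ANGPT2 0.23 and TEK -0.0418. Leaving out 1 cow gave VEGFA changes from -0.28 to 0.0968 (the latter without cow 4), and without cows 4 and 9 it was 0.0707. Leaving out 1 cow gave VEGFB changes from -0.0798 to 0.0413, of which those without cow 3 (0.000253) and cow 6 (0.0413) were above 0. With the end index VEGFB was 0.0434 and ANGPT2 0.0103. PGF probe 3 was -0.18, and VEGFB against VEGFA ran from -0.22 (without cow 4) to 0.18 with 1 cow left out. Cows 4 and 9, slide 3 without cow 9, the end index and the comparison of gene ends were chosen after seeing the data. Naming probes also by accession added no probe and was not run. Weak signal limits FLT4, ANGPT1 and the second KDR probe.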
